A study of Homo sapiens with 6 samples.

Results

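The distal long arm of chromosome 17 in HCT116 cells carried more END-seq peaks per Mb after camptothecin (CPT) than the rest of the chromosome, and the peaks of that stretch are described here. All peaks of 8 lists on chromosome 17 with a start at or above 40000000 (hg19) were taken, which gave 106540 of 165128 peaks on chromosome 17, or 64.5%, and 2.497% of 4267178 peaks in all. The stretch, called the 17q block below, was chosen by its peak density in these same lists, so the difference in density between block and rest is given as a description with no test. HCT116 is a human colorectal carcinoma cell line. The cells received 10 µM CPT for 10 min (CPT10) or 20 min (CPT20), with 2 replicates each, and untreated cells served as input for peak calling. The treatment labels of the samples write CPT 10 µM and CPT 20 µM, whereas the treatment protocol gives a single dose of 10 µM and both times, and the protocol is followed here. Murine pre-B cells served as a spike-in. The 2 untreated libraries were not analysed here.

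CPT traps DNA topoisomerase I on a nicked strand, where it forms a cleavage complex (Top1cc) that can end in a double-strand break (DSB) when replication or transcription meets it. END-seq ligates an adapter to DSB ends in agarose-embedded DNA, and reads then run away from the break on either side. A DSB with both ends ligated therefore gives a peak of reverse reads followed by a peak of forward reads. A single ligated end gives a peak on only 1 strand. A peak on only 1 strand need not mark such an end, because the lists also hold low peaks. The lowest peak height was 4 in the forward list of CPT10 replicate 2, where the expected height was 0.73. In the forward list of CPT10 replicate 1 it was 6, where 1.44 was expected. How many peaks on 1 strand mark a single end was not tested. The distal long arm of chromosome 17 holds many protein-coding genes, and HCT116 cells are known for a near-diploid karyotype in which distal 17q is gained. The number of ends in a stretch depends on how many copies of it the cells hold as well as on how often each copy breaks, and the peak lists cannot tell these apart. Copy number was not analysed here.

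Paired peaks inside introns show what a member of the block looks like at base level, and they are printed for a cluster of both times and one of 20 min only because they carry the site counts given further on. A DSB site is a reverse peak with the closest forward peak that overlaps it or begins under 150 bp downstream. Overlapping peaks are paired whichever begins first. The name stands for this pairing rule, and a site need not be a break. A cluster is a run of overlapping sites that both replicates of a time share, and it was found at both times, at 10 min only or at 20 min only. Each sequence is the plus strand of hg19, 300 bases centred on the junction of a pair of peaks in replicate 1, namely the pair with the highest smaller −log10 q-value among those whose forward peak begins at or after the start of the reverse peak. That value was 69.0 for the VMP1 pair and 40.8 for the FTSJ3 pair. Capitals mark the bases between the end of the reverse peak and the start of the forward peak, which are a gap in the first and an overlap of the peaks in the second.
VMP1 intron, both times, chr17:57914613-57914912: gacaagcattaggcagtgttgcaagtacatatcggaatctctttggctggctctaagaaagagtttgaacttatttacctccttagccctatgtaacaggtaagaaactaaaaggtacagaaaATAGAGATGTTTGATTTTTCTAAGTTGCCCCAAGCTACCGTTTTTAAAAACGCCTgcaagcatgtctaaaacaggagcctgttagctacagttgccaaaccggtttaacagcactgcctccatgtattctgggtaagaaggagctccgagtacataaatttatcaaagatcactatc
FTSJ3 intron, 20 min only, chr17:61906125-61906424: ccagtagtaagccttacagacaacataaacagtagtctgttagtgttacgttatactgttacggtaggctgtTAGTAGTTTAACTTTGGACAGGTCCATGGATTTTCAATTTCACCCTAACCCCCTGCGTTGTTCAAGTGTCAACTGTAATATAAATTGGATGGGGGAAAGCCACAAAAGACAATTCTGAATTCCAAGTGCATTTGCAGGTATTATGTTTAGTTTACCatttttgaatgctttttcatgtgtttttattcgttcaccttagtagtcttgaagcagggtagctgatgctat
The FTSJ3 label rests on the full annotated span of that gene. The midpoint of this cluster lay at -986 bp from the canonical 5′ end of FTSJ3, thus upstream of it. The printed bases also lie within PSMC5, a gene of the plus strand at chr17:61904512-61909386. The junction spanned 55 bases in VMP1 and 156 in the FTSJ3 sequence. GC content was 40.3% in the VMP1 sequence and 38% in the FTSJ3 sequence. Over all 64 clusters of the block found at both times, the median GC content around the junction, or around the midpoint where no pair had that order, was 41.5%, beside 45.3% in all 300-base tiles of the block. Runs of at least 3 G or 3 C, counted on the plus strand, stood at 4 or more in 75% of these clusters and in 81.9% of the tiles. The share with several G or C runs was thus not higher around the junctions than over the block at large.

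Peak density in the block exceeded that of the rest of the chromosome in each library. At 10 min, replicate 1 held 840 peaks per Mb of sequenced reference in the block and 538 in the rest, and replicate 2 held 588 and 346. At 20 min, replicate 1 held 793 and 517 peaks per Mb, and replicate 2 held 374 and 193. The ratios were 1.56, 1.70, 1.53 and 1.94, a mean of 1.68 ± 0.19 (SD, n = 4 libraries). The block covers 52.8% of the sequenced bases of chromosome 17 and held 63.1% to 68.4% of its peaks. Both strands took part, since the 8 lists gave ratios from 1.52 in the reverse list of CPT10 replicate 1 to 1.98 in the forward list of CPT20 replicate 2.

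With all bins in the fit, the step lay above the start of the block. A single step fitted by least squares to counts per 100 kb bin fell at a median of 44.9 Mb over the 8 lists, with a range of 44.8 to 45 Mb. The counts above the step were 1.59 to 2.15 times those below it, and the step took up 26.2% to 41.6% of the variance between bins. From 40 Mb to the step, peak density was 0.98, 0.80, 1.03 and 0.93 times that of the rest in the 4 libraries. These values include the sparse stretch described next, and the 3.4 Mb before that stretch, from 40 to 43.4 Mb, held 696, 362, 715 and 238 peaks per Mb, above the 538, 346, 517 and 193 of the rest in all 4 libraries. Above the step the ratios were 1.64, 1.82, 1.601 and 2.08.

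**Figure D1:**
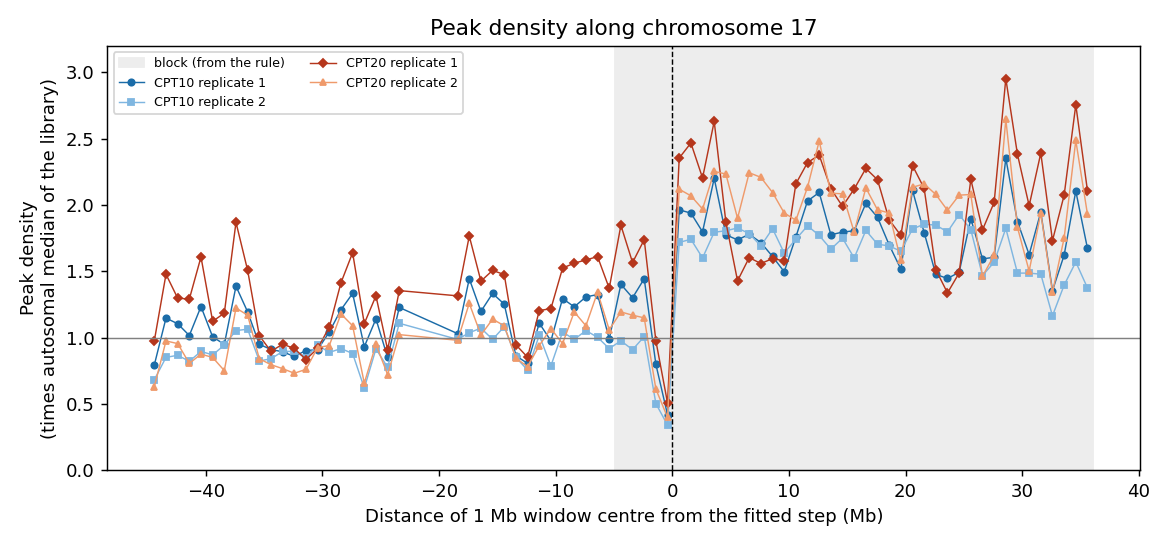
Peak density in 1 Mb windows of chromosome 17 with at least 90% sequenced bases, as a multiple of the library's own autosomal median, against the distance of the window centre from the fitted step. Each line is 1 library, the grey area is the block as the rule sets it and the dashed line is the step at 44.9 Mb; all 4 libraries dip just before the line and stay above their median after it.

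The position of the step rests in part on a sparse stretch that lies just before it. From 43.4 to 44.8 Mb, 14 bins in a row held 405 peaks in all 8 lists together, and none held more than 63, beside a median of 152.5 per bin in the rest of the chromosome. This stretch of 17q21.31 holds KANSL1, LRRC37A and LRRC37A2, and it is known for duplicated sequence. The authors kept reads with a mapping quality of at least 30. How far that filter thinned the stretch was not tested. Without these 14 bins, chosen after seeing the data, the median step moved to 43.8 Mb with a range of 39.5 to 45 Mb. The replicate 2 lists of both times then still gave 44.8 to 45 Mb, the CPT10 replicate 1 lists gave 42.7 and 42.8 Mb, and the CPT20 replicate 1 lists gave 39.5 and 39.9 Mb. Without the sparse stretch the lists of replicate 2 thus placed the edge alike, and those of replicate 1 placed it lower on the chromosome.

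Genes around the fitted step were NSF, which encodes a membrane fusion ATPase, the Wnt ligand genes WNT3 and WNT9B, and GOSR2, which encodes a Golgi SNARE. WNT3 lies at chr17:44839872-44910520 on the minus strand and holds the median position. WNT9B follows at chr17:44910567-44964096 on the plus strand. In the 1.4 Mb before the sparse stretch the 4 libraries held 736, 372, 746 and 238 peaks per Mb, and in the 0.2 Mb between its end and 45 Mb they held 680, 435, 710 and 280. In the same length from 45 Mb they held 994, 647, 982 and 433. Each library was highest in the stretch from 45 Mb, so a rise across this region was seen without the sparse stretch as well.

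The windows above the step varied little among themselves, with a coefficient of variation of 11.2% in the mean of 4 libraries beside 16.6% in the rest. From 45 Mb to the end, 36 full windows of 1 Mb had densities of 1.40 to 2.44 times the autosomal median as the mean of 4 libraries, with a median of 1.89, against 0.77 to 1.38 and a median of 1.07 in the 36 full windows of the rest. All 36 exceeded the median of the rest in each library, and 35, 36, 25 and 35 of them exceeded the highest window of the rest in CPT10 replicate 1, CPT10 replicate 2, CPT20 replicate 1 and CPT20 replicate 2.

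The highest window of the block was that at 73 to 74 Mb, which holds 38 protein-coding gene starts, among them SUMO2, GRB2 and H3-3B. It held 1164, 686, 1199 and 532 peaks per Mb in the 4 libraries, 2.44 ± 0.48 times the autosomal median (SD, n = 4). The windows at 79 to 80 Mb, with ACTG1, P4HB and ARHGDIA, and at 48 to 49 Mb, with COL1A1 and LUC7L3, followed at 2.23 ± 0.51 and 2.22 ± 0.34. The 3 lowest windows lay below the step or, in one case, across it. The window at 44 to 45 Mb stood at 0.42 ± 0.07, that at 43 to 44 Mb at 0.72 ± 0.21 and that at 41 to 42 Mb, which holds RPL27, at 1.24 ± 0.27.

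The stretch above the step was not richer in genes than the rest. Above the step there were 12.1 protein-coding gene starts per Mb, fewer than the 17.2 per Mb in the rest, and GC content was 45.04% beside 45.7%. In sequence outside all annotated genes, the block held 802, 585, 742 and 348 peaks per Mb and the rest 474, 333, 454 and 171, ratios of 1.69, 1.76, 1.63 and 2.04. In 1 Mb windows of 42% to 46% GC, 12 windows from 45 Mb on had 1.92 ± 0.18 times the density (SD, n = 4 libraries) of 16 windows of the rest. The ratio was 1.96 ± 0.34 at 38% to 42% GC, 1.58 ± 0.15 at 46% to 50% and 1.70 ± 0.19 at 50% to 56%. Over the whole GC range that both sets share it was 1.83 ± 0.18. Within the plateau the libraries did not vary alike with base composition. Across its 36 windows, density and GC content gave Pearson's r of 0.25 and -0.69 in the replicates of 10 min and 0.64 and -0.22 in those of 20 min. Windows of 1 library share its depth and its amplification, so these values describe each library only.

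Strong peaks showed a larger ratio than weak ones. When peaks with a −log10 q-value of at least 3 were counted, the ratios of block to rest were 1.75, 2.16, 1.77 and 2.202. At a −log10 q-value of at least 10 they were 2.15, 2.51, 2.18 and 2.90, on 8067, 916, 6530 and 824 peaks of the block. At one of at least 15 they were 2.22, 2.34, 2.43 and 2.22, on 3571, 220, 2978 and 226 peaks. The ratio thus fell from a threshold of 10 to 15 in the replicate 2 library of each time. Median peak width was also larger in the block, at 223, 195, 253 and 215 bp beside 202, 182, 225 and 197 bp in the rest. Peaks were called against 1 expected height per list, so density, width and q-value are not independent measures.

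**Figure D2:**
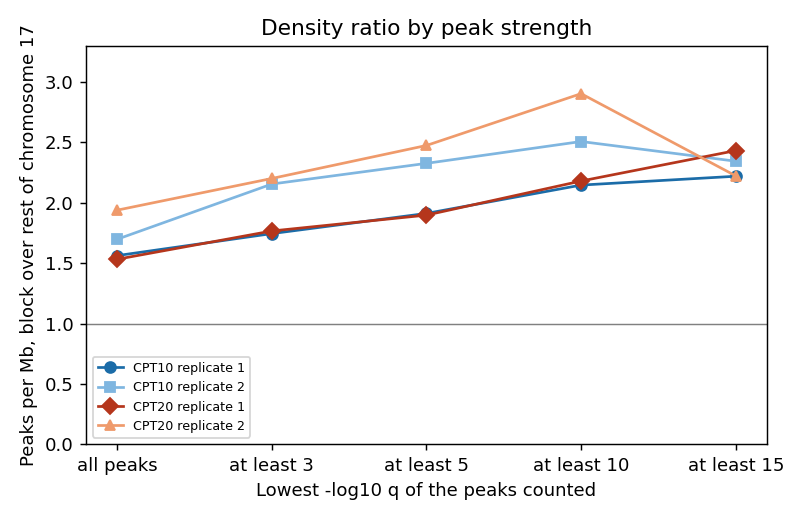
Ratio of peaks per Mb in the block to peaks per Mb in the rest of chromosome 17, counted over all peaks and over peaks with a −log10 q-value of at least 3, 5, 10 and 15. Each line is 1 library and the grey line marks a ratio of 1; all 4 libraries rise up to a threshold of 10, where they lie between 2.15 and 2.90.

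Chromosome 17 was not the only one with such a step. In full 1 Mb windows, the best single step of each of 23 chromosomes explained the most variance on chromosome 8, with 88.7%, and then on chromosome 17, with 79.6%. The ratio of the means was 1.87 on chromosome 8, 1.78 on chromosome 17, 1.69 on chromosome 10 and 1.65 on chromosome 16. Of 2790 windows, 45 reached the median of the plateau of 17q. The 18 of them in the block follow from taking the block's own median as the threshold. Outside the block, 18 lay on chromosome 8, 8 on chromosome 10 and 1 on chromosome 3.

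No difference between the times was found in the ratio of block to rest. The log2 ratios of block to rest were 0.64 and 0.76 at 10 min and 0.62 and 0.96 at 20 min. The difference of the means, 20 min minus 10 min, was 0.08, and the groups overlapped (exact permutation test, two-sided, p = 1, n = 2 per time; the smallest p that 4 libraries allow is 0.33). The replicate numbers gave -0.03 for replicate 1 and 0.19 for replicate 2. Against all other autosomes the block stood at 1.65 and 1.55 at 10 min and at 1.81 and 1.80 at 20 min, without overlap, a log2 difference of 0.18 at the smallest p (exact permutation test, p = 0.33). When the same number of peaks was taken from every list, the difference for block to rest turned to -0.06 (exact permutation test, p = 0.67). The difference against all other autosomes was then 0.086 and kept its direction (exact permutation test, p = 0.67). The list sizes differed greatly, from 575098 peaks in CPT20 replicate 2 to 1418625 in CPT10 replicate 1.

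Window by window, the comparison of times depended on how lists of different size were scaled. With counts divided by list size, 20 of 41 windows had both libraries of 20 min above both of 10 min and 0 had both below. Over all 2790 windows, 8.57% were above and 18.9% were below. With the same number of peaks in every list, 0 of the 41 windows were above and 1 was below, where 8.75% and 10.6% of all windows were. The first count therefore did not hold when lists of equal size were compared.

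**Figure D3:**
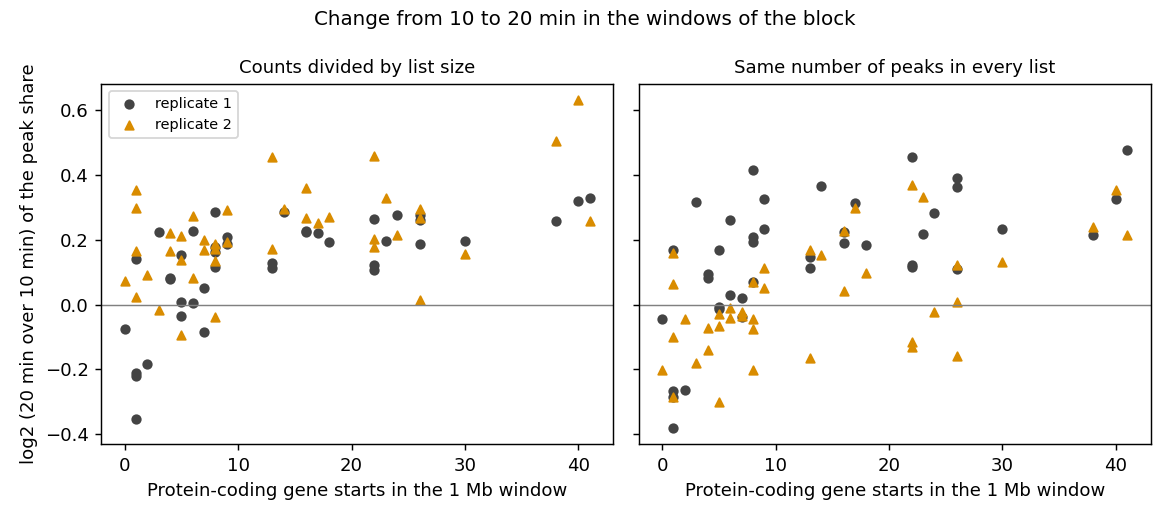
Log2 ratio of 20 min to 10 min of the share of peaks in each of the 41 full windows of the block, against the number of protein-coding gene starts in the window. Points are replicate 1 and replicate 2; the left panel divides counts by list size and the right panel uses lists of equal size, where replicate 2 has a median of -0.02.

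Within the block, windows with more gene starts had higher ratios of 20 to 10 min, with Pearson's r of 0.65 in replicate 1 and 0.52 in replicate 2 over 41 windows when scaled by list size, and of 0.59 and 0.56 with lists of equal size. GC content gave 0.84 and 0.32, and 0.81 and 0.48 with lists of equal size. The ratios of the 2 replicates themselves correlated with r of only 0.26 over the 41 windows, and the relation to gene starts was also found in the rest of the chromosome, with r of 0.75 and 0.46 over 36 windows. The 16 windows with over 15 gene starts had median log2 ratios of 0.22 and 0.27, and the 12 windows with up to 5 had -0.01 and 0.15. The window at 50 to 51 Mb, with 1 gene start, had -0.35 in replicate 1 and 0.02 in replicate 2. The window at 79 to 80 Mb, with 40, had 0.32 and 0.63. The parts of gene number and GC content in this were not tested.

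Forward and reverse peaks were about equally common in the block as a whole. The forward share was 44.04% (95% Wilson interval 43.5% to 44.6%) in CPT10 replicate 1, 50.5% (49.8% to 51.1%) in CPT10 replicate 2, 50.1% (49.6% to 50.7%) in CPT20 replicate 1 and 50.6% (49.9% to 51.4%) in CPT20 replicate 2. The low value of the first library went with its whole list, whose forward share was 41.7%. The intervals cover counting error only. The block minus the rest differed by 0.41 percentage points on average and was above 0 in 2 of 4 libraries (exact sign-flip permutation test, two-sided, p = 0.5, n = 4; the smallest p is 0.125).

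Single windows of the block, in contrast, leaned to 1 strand in the same way in all libraries. In 33 of 41 windows, the forward share was on the same side of the value of its whole library in all 4 libraries, 21 to the forward and 12 to the reverse side, where 65.0% of all 2790 windows did so. By at least 5 percentage points, 8 of 41 windows did so, close to the 20.9% of all windows. Across the 41 windows the shares of any pair of libraries correlated with Pearson's r of 0.88 to 0.95. In the rest of the chromosome, 21 of 36 windows lay on the same side in all 4 libraries, and r was 0.77 to 0.87. The agreement between libraries was thus not particular to the block, whose windows above the step also hold more peaks.

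The window at 49 to 50 Mb, which holds the 3′ part of CA10, a carbonic anhydrase-related gene of brain, leaned furthest to the reverse strand. Its forward share minus that of the library was -9.07, -16.9, -14.0 and -26.8 percentage points in the 4 libraries. The windows from there to 55 Mb moved towards the forward strand, with mean deviations of -16.7, -5.95, -0.995, 6.199, 4.19 and, at 54 to 55 Mb, 15.3. The window at 54 to 55 Mb deviated by 11.4, 14.3, 14.1 and 21.4 percentage points, and that at 72 to 73 Mb by 13.6, 11.2, 12.9 and 18.5. In both, all 4 libraries lay well above their own level.

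**Figure D4:**
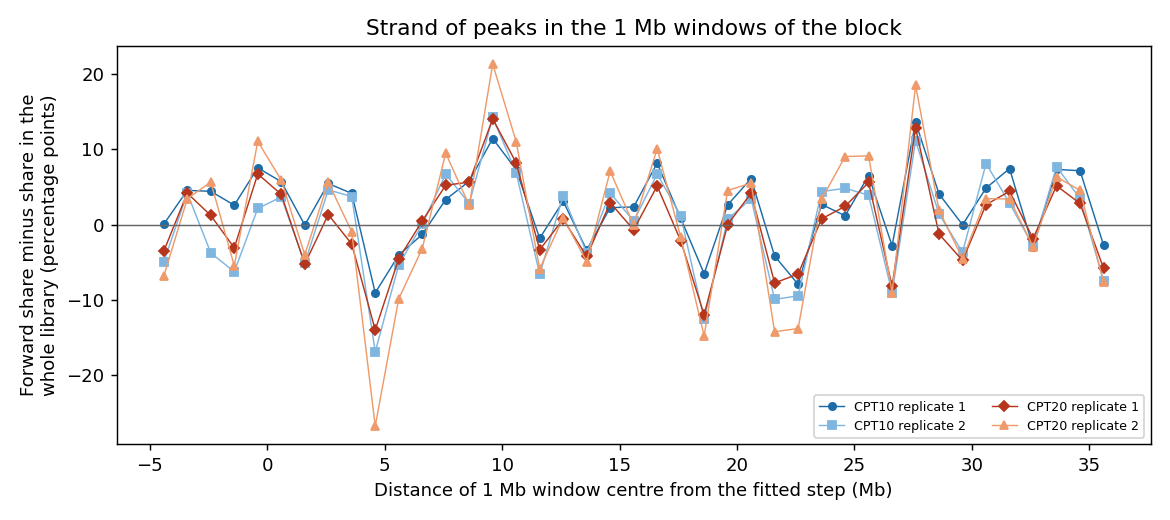
Share of forward peaks among all peaks of a 1 Mb window of the block, minus the share in the whole library, in percentage points, against the distance of the window centre from the fitted step. Each line is 1 library and the grey line marks 0; the 4 lines follow each other, with the deepest trough in the window at 49 to 50 Mb and high points in those at 54 to 55 Mb and 72 to 73 Mb.

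Pooled over genes, the strand of peaks differed between genes of the plus and of the minus strand. Inside protein-coding genes of the plus strand, 47.5%, 54.2%, 53.5% and 55.4% of the peaks of the block were forward peaks, and inside genes of the minus strand 41.03%, 45.2%, 46.03% and 44.8%. The difference was 8.40 ± 1.84 percentage points in the block and 3.83 ± 1.27 in the rest of the chromosome (SD, n = 4 libraries), and it was above 0 and larger in the block in all 4 libraries. The difference between block and rest reached the smallest p that 4 libraries allow (exact sign-flip permutation test, two-sided, p = 0.125, n = 4). Long genes weigh most in these pooled shares. In CPT10 replicate 1, BCAS3 held 572 peaks and CA10 held 429. Whether the difference goes with gene direction or with the lean of the windows that hold the genes was not tested. Peaks outside genes leaned the same way as the window they lay in, with Pearson's r of 0.71 to 0.87 over 33 to 39 windows with at least 50 such peaks, but these peaks are also part of the window's own share.

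DSB sites were denser in the block too. There were 4545, 2028, 4471 and 917 sites in the 4 libraries, 111, 49.4, 109 and 22.3 per Mb, beside 44.4, 19.2, 45.3 and 6.83 per Mb in the rest. The ratios of 2.49, 2.58, 2.41 and 3.27 exceeded those of single peaks. A pair needs 2 peaks close together, and how far this bears on the larger ratios was not tested. Neighbouring peaks that did not overlap were counted by the order of the strands. Sites made of overlapping peaks are not part of this count, so it leaves them unchecked. A reverse peak came before a forward peak 1100, 600, 1095 and 265 times, and the opposite order, which a single break with both ends ligated does not give, occurred 1044, 554, 953 and 202 times. The order ratios were 1.05 (95% interval 0.97 to 1.15), 1.08 (0.96 to 1.22), 1.15 (1.05 to 1.25) and 1.31 (1.09 to 1.58). They were above 1 in 4 of 4 libraries with a geometric mean of 1.15, and only those of 20 min had intervals above 1. The rest of the chromosome had a geometric mean of 1.13, and the ratio of block to rest was 1.02 (exact sign-flip permutation test, two-sided, p = 0.75, n = 4). Among peaks with a −log10 q-value of at least 10, the orders occurred 81 and 67, 5 and 2, 64 and 53, and 7 and 1 times in the block, and the lowest of the 4 ratios was 1.21 (0.84 to 1.73).

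Few sites were found in both replicates. At 10 min, 318 of the 4545 sites of replicate 1 overlapped a site of replicate 2, or 6.997%, and 324 of the 2028 sites of replicate 2 overlapped one of replicate 1, or 16.0%. At 20 min the counts were 259 of 4471, or 5.79%, and 266 of 917, or 29.0%. In the rest of the chromosome the shares were 5.51% and 12.8% at 10 min and 4.75% and 33.1% at 20 min. The share was higher in the smaller list of each pair, so the times are not compared by it. After merging, the block held 301 clusters at 10 min and 242 at 20 min, 7.33 and 5.90 per Mb, beside 2.34 and 2.04 per Mb in the rest and 1.36 and 0.99 over chromosomes 1 to 22 and X. There were 64 clusters found at both times, 228 at 10 min only and 174 at 20 min only. The 64 clusters amount to 6.87% of the 931 in the genome, and 60 of them lay above the step.

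The clusters of both times lay at the start of genes more often than the others of the block. Of the 64, 45 had their midpoint no more than 5 kb from a protein-coding 5′ end, or 70.3% (95% Wilson interval 58.2% to 80.1%), 37 of them downstream of it. Of the clusters at 10 min only, 44 of 228 did so, or 19.3% (14.7% to 24.9%), and of those at 20 min only, 62 of 174, or 35.6% (28.9% to 43.0%). In the rest of the chromosome the shares were 57.1%, 42.1% and 59.6%, on 28, 57 and 47 clusters. Clusters are not replicates of a condition, and these intervals cover counting error only. Protein-coding 5′ ends numbered 13.6 per Mb in the block and 17.2 in the rest. The share of bases that near a 5′ end was not computed, so these shares have no background beside them. Median cluster width in the block was 1920 bp for both times, 719 bp for 10 min only and 911.5 bp for 20 min only.

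The strongest cluster of the block spanned chr17:57913056-57925985, 12930 bp across the 3′ end of VMP1, a gene for a membrane protein of autophagy, and overlapping the gene of the microRNA miR-21 (MIR21). The smaller −log10 q-value of its best paired peaks, which is the measure given for every cluster here, was 164 and 97.4 at 10 min and 159 and 70.6 at 20 min, rank 32 of the 856 clusters of both times on chromosomes 1 to 22, X and Y. ACTG1, the gene of cytoplasmic gamma-actin, followed at chr17:79473342-79479751 with 112, 29.1, 130 and 54.7. H3-3B, a gene of the replication-independent histone H3.3, held chr17:73769230-73776278 with 45.6, 35.6, 90.4 and 42.9. The cluster at chr17:74726569-74732987 covered METTL23 and SRSF2, a gene of a splicing factor, with 57.3, 26.1, 46.5 and 27.2. DDX5, the gene of an RNA helicase, held chr17:62492557-62502861 with 34.0, 24.5, 34.9 and 18.5. All 5 clusters have their midpoint in an exon, at a position annotated as UTR.

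A further strong cluster lay in no annotated gene. It spanned chr17:41399981-41401446, below the step, with −log10 q-values of 55.8, 37.2, 30.3 and 27.1. It stood 36820 bp downstream of the start of TMEM106A, the nearest protein-coding 5′ end.

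The clusters of 1 time overlapped those of both times in strength. At 10 min only, the leading clusters lay in an intron of LUC7L3, which encodes a splicing protein, with −log10 q-values of 27.3 and 7.39 in the replicates, in an intron of KPNB1, which encodes importin beta, with 14.0 and 7.44, and in NT5C, a nucleotidase gene, with 13.1 and 7.44. At 20 min only, they lay in EIF4A3, which encodes a helicase of the exon junction complex, with 28.9 and 24.2, at FTSJ3 and the start of PSMC5, with 40.8 and 10.9, and in the non-coding gene LINC01970, with 17.4 and 9.75. The EIF4A3 cluster ranked 1 of 1867 clusters of its class. These classes depend on the weaker replicate, since EIF4A3, FTSJ3 and LINC01970 all had a site in replicate 1 of 10 min as well, with 16.2, 19.8 and 6.30, and none in replicate 2. NT5C had a site in both libraries of 20 min, with 12.0 and 4.07, that did not enter a replicated cluster there, and LUC7L3 had one in replicate 2 of 20 min, with 4.07.

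The listed housekeeping genes of the block held more peaks per kb than the listed genes of other tissues. Both lists were chosen with earlier results of these data known. The housekeeping list also holds genes of the leading clusters above, among them ACTG1, H3-3B, SRSF2 and DDX5. The counts therefore describe these lists only. Of 557 protein-coding genes that begin in the block, 141 held a site replicated at 10 min, 138 one at 20 min and 53 a cluster of both times, which is 25.3%, 24.8% and 9.52%, beside 9.23%, 8.45% and 2.87% of all 20098 genes. These shares follow the density that chose the block. Of 25 housekeeping genes of distal 17q, 20 held a site replicated at 10 min, 22 at 20 min and 18 a cluster of both times. Of 30 genes of other tissues, 1 did so at 10 min, 1 at 20 min and 0 held a cluster of both times. The single gene was CA10, 530 kb in length.

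Peaks per kb of gene, counted by peak midpoints and averaged over 4 libraries, had a median of 1.32 in the housekeeping genes, of 0.59 in genes of other tissues and of 0.72 in all 557 genes. SRSF1, a splicing factor gene, held 9, 16, 9 and 10 peaks in 6.43 kb, or 1.71 ± 0.52 per kb (SD, n = 4). RPL38, a ribosomal protein gene, held 15, 15, 13 and 9 peaks in 7.07 kb, or 1.84 ± 0.40 per kb. FASN, the gene of fatty acid synthase, held 26, 15, 26 and 19 peaks in 20.0 kb, or 1.08 ± 0.27 per kb, and no replicated site. CSH1, CSH2 and GH2, placental genes of the growth hormone cluster, held 0 peaks in each library. The growth hormone genes are near-identical copies, in which reads are hard to place. RBFOX3, a neuronal splicing factor gene, held 223, 167, 250 and 99 peaks in 427 kb, or 0.43 ± 0.16 per kb, and no replicated site.

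**Figure D5:**
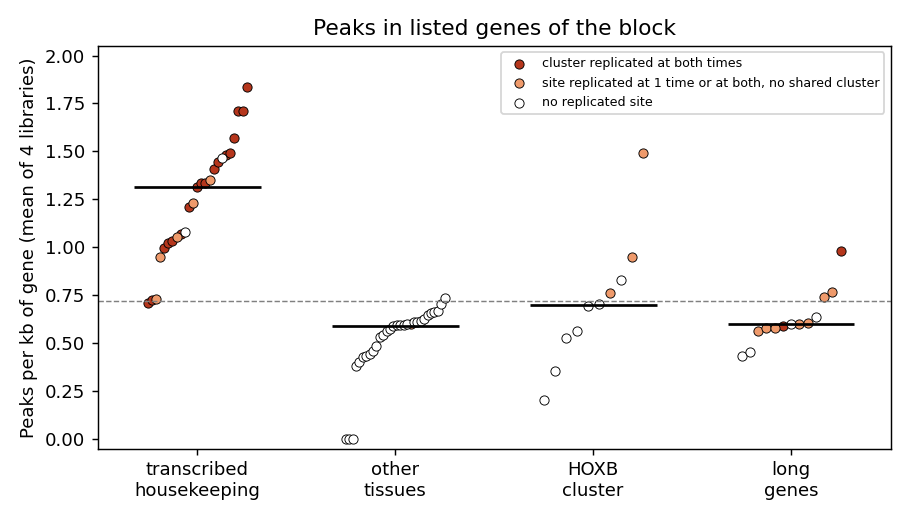
Peaks per kb of gene, as the mean of 4 libraries, for the genes of 4 lists in the block; each point is 1 gene, its fill gives the kind of replicated site it holds, the black bars are the medians of the lists and the dashed line is the median of all 557 genes of the block. The housekeeping genes have a median of 1.32 and the genes of other tissues of 0.59.

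Among the HOXB genes, patterning factors that lie in a cluster above the step, 2 of 10 held a site replicated at 10 min, 1 at 20 min and 0 a cluster of both times. HOXB9 was the highest, with 8, 10, 10 and 3 peaks in 5.20 kb, and the median of the 10 genes was 0.70 peaks per kb. Of 13 long genes, 7 held a site replicated at 10 min, 6 at 20 min and 2 a cluster of both times, namely VMP1 and TEX2. Their median of 0.60 peaks per kb was below that of all genes of the block, and VMP1 was the highest at 0.98 ± 0.31. A long gene can hold a replicated site through its length alone, so the counts of sites and the densities do not order these lists alike.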

How the data were processed

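HCT116 cells, treated with CPT or not, were profiled by END-seq in 2 replicates per condition. Per the study's methods, the authors aligned reads to hg19 with Bowtie2, kept those with a mapping quality of at least 30, split them by strand and called peaks with MACS2 per library and strand, without the local background, at a q-value of 0.05. The deposited lists give a score per peak, a fold enrichment as a linear ratio, the −log10 p-value and the −log10 q-value. Replicates were not pooled. The study calls the replicates biological and lists them as separate experiments. Read depth is not in the peak lists.

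Peaks were assigned by their start. Densities are per Mb of bases other than N in GRCh37, the same build as hg19, with genes from GENCODE release 44 lifted to it; 5′ ends are those of canonical transcripts. Tests were exact, over libraries. The members and lists were chosen with earlier results of these data known. Named were the genes at the step, the leading 6, 3 and 3 clusters of the 3 classes by their worst rank over libraries, members of 4 lists, and the 3 highest and 3 lowest windows. The step fit and the pairing of peaks were tested on simulated data. Python 3.11.15, numpy 2.4.6, pandas 2.3.3 and SciPy 1.17.1 were used. Some items of the stretch are not reported here.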

Additional observations from a re-analysis of the deposited data

How the results depend on the processing

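Of 60 alternatives tried over 6 results, 41 were labelled the same, 12 moved and 7 turned in direction. The causes were not tested. A result labelled the same could still change in size. The forward-share difference of 2.45 and the 96 clusters of both times without CPT10 replicate 1 carried that label. The mean ratio of block to rest, 1.68, was 1.97 and 2.44 at −log10 q-values of at least 3 and 10, 1.95 with the same number of peaks in every list, 1.88 for bases covered by peaks and, chosen after seeing the data, 2.01 against all other autosomes with lists of equal size. The step lay at 45 Mb with 500 kb bins and at 43.8 Mb without the sparse bins. The time difference of 0.082 became -0.056 with lists of equal size, 0.18 against all other autosomes (p = 0.33 by exact permutation, the smallest possible) and 0.086 against them with lists of equal size, and ranged from -0.088, without CPT20 replicate 2, to 0.25, without CPT20 replicate 1; with the replicate block it was 0.082 (exact permutation p = 1, where 2 pairs allow no p under 0.5). The difference in forward share, 0.41 percentage points, was -0.11 at a −log10 q-value of at least 3, 2.45 at one of at least 10 (exact p = 0.25) and 0.038 to 0.84 with 1 library left out. The order ratio of block over rest, 1.02, was 0.95 at a −log10 q-value of at least 3, 0.87 for gaps under 50 bp and 0.99 for gaps under 500 bp, and from 0.99, without CPT20 replicate 1, to 1.04 with 1 library left out; at a −log10 q-value of at least 10 it had no value, as a library had no pair of the opposite order in the rest. The 64 clusters of both times became 14 at a −log10 q-value of at least 10, 117 with pairing under 500 bp and 24 when at least 50% of both sites had to overlap, and 82, without CPT20 replicate 1, to 143, without CPT10 replicate 2, when 1 replicate sufficed for a time (136 without CPT20 replicate 2). The number of libraries, 4, limits the precision of all these differences.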
